A study of Mus musculus with 14 samples.

Results

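The EGR family and its partners of the early serum response were followed here through 8 mouse genes, Egr1, Egr2, Egr3, Egr4, Ier2, Ier3, Srf and Atf3, which were given by name. The rule that lists them uses no measured value, but it was written with earlier results of these data known. They are 8 of 21938 protein-coding genes and of 55413 annotated genes on the chromosomes. For each gene, all sites of monomethylated histone H3 lysine 4 (H3K4me1) were mapped over the gene and 20 kb to either side, relative to the transcriptional start site (TSS) and to CpG islands (CGIs). H3K4me1 had been measured by ChIP-seq in NG3 cells, a single clone of immortalized mouse embryo fibroblasts (labelled iMEF) in which exon 4 of both endogenous Ash2l alleles was deleted by a Cre-ER recombinase and a lentiviral human ASH2L fused to FKBP12F36V was expressed in their place. The control cells, labelled WT, carried the same deletion and fusion protein and received no dTAG, and the other cells received dTAG, which leads to degradation of the fusion protein, for 30 min or for 2, 4, 8 or 16 h. Each of the 6 conditions had 2 replicates, and with an input library each for the untreated and the 16 h cells there were 14 libraries. The deposited table is a single list of 160144 sites over all samples and holds no signal, count or p-value per library, so neither a change with time nor a spread between replicates could be measured from it and no test was made. The sites that the authors called changed at each time point are listed in a separate table, which was not analysed here. How deeply each library was sequenced cannot be read from this list. Nor does it tell whether a site was found in untreated cells, in dTAG-treated cells or in both. The paper reports that increases of H3K4me1 after dTAG lay almost only at promoters, that of Egr1 among them. The layouts below can therefore not be assigned to untreated cells alone.

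Immediate early genes are transcribed within minutes of a growth factor signal, without new protein synthesis. Serum factors act through MAP kinases and actin dynamics on serum response factor (SRF), which binds the CArG box together with ETS-type cofactors or the MRTF coactivators. Egr1 to Egr4 encode zinc finger transcription factors that bind GC-rich DNA, Atf3 encodes a stress-induced bZIP factor, Ier2 a nuclear regulator of transcription, and Ier3 a regulator of survival and stress signals. H3K4me1 is known from enhancers and from the flanks of active promoters, where the nucleosomes next to the TSS carry the trimethylated form. The cells were grown in medium with serum, and the labels name no step of starvation or stimulation.

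As a check of the cell type, 7 of 8 fibroblast marker genes had a site within 1 kb of the TSS, and Col3a1, a fibrillar collagen gene, had its nearest site 1918 bp before the TSS. Over all protein-coding genes the share with such a site was 63.9%, and over those with a CGI 93%. A CGI lay at 4 of these 8 promoters, against 11830 of 21938 over all protein-coding genes. Of 12 markers of blood, epithelium, neurons and liver, 5 had such a site, namely Epcam, Cdh1, Krt8, Neurod1 and Syn1, and a CGI lay at 4 of the 12. Such sites were thus also listed at genes of other cell types.

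Egr1 was described first, since it gave the pattern with which the other genes were compared. Its first annotated TSS was free of sites, and a site began within 1 kb on each side. A total of 7 of the 8 genes had a site within 1 kb of the first TSS, against 63.9% of protein-coding genes and 93% of the 11830 protein-coding genes with a CGI at the promoter. A CGI lay within 1 kb of the first TSS in 7 of the 8 genes, with Atf3 as the exception, against 11830 of 21938 protein-coding genes. The first TSS lay under a site in 5 genes (Egr3, Egr4, Ier2, Ier3 and Atf3), against 39.5% of protein-coding genes and 56.7% of those with a CGI. It was free with a site on each side, the Egr1 layout, in 2 genes (Egr1 and Srf), against 13.7% of protein-coding genes and 23.7% of those with a CGI (95% Wilson interval 22.9 to 24.4%, counting of genes only). Egr1 has this layout by definition, so that Srf, 1 of the other 7 genes, is what the comparison adds. Egr2 had no site within 1 kb, as did 36.1% of protein-coding genes but 7.05% of those with a CGI. Of the 10108 protein-coding genes without a CGI, to which Atf3 belongs by its first TSS, 29.8% had a site within 1 kb, 19.4% had the TSS under a site, 2.09% had the Egr1 layout and 70.2% had no site. With 8 genes, the counts with a site within 1 kb and with the TSS under a site lay near the shares of CGI genes.

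**Figure D1:**
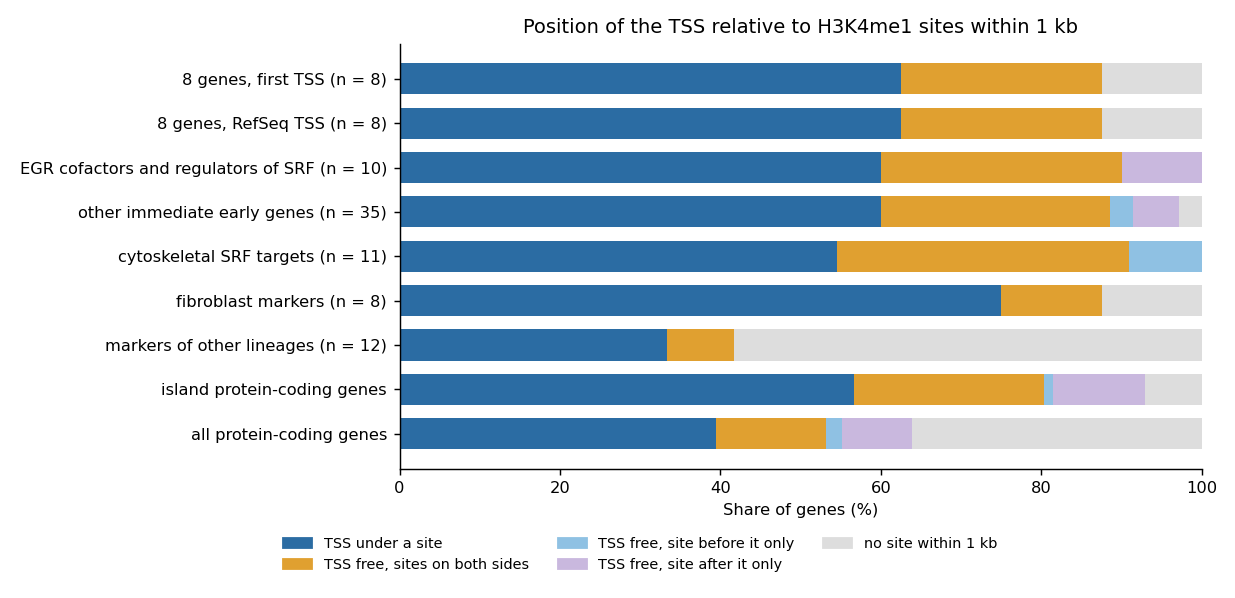
Share of genes (%) by the position of the TSS relative to H3K4me1 sites within 1 kb, for the 8 genes at their first and at their RefSeq TSS, for the related gene lists, for cell type markers and for all protein-coding genes. The bars of the 8 genes are the same at both sets of TSSs, 5 under a site, 2 free between sites and 1 without a site, although the genes in the first 2 classes differ.

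Egr1, the prototype of the family, lies on the plus strand at chr18:34859823-34864984 (mm10). Before its first TSS, sites lay at -10400 to -9663, -5322 to -5123, -3559 to -3191 and -1261 to -488 bp. After it, sites of 510 bp and 3156 bp lay at 326 to 835 and at 1151 to 4306 bp, followed by sites at 5252 to 5707 and 23327 to 24019 bp. The TSS thus sat in a site-free stretch of 813 bp, with 487 free bases before and 325 after it. Sites covered 71.0% of the gene, including all of its coding exons and its intron, but 61.5% of the 5' UTR and 29.9% of the 3' UTR. A small CGI of 227 bp lay within the free stretch at 4 to 230 bp, and a CGI of 1774 bp at 652 to 2425 bp was 82.2% under sites.

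This layout depends on which TSS of Egr1 is used. The gene has 2 annotated TSSs, and the inner TSS, 1384 bp after the first, lay under the 3156-bp site, which ran from -233 to 2922 bp around it. RefSeq places the Egr1 TSS at this inner position alone. The next site-free stretch before the inner TSS was 315 bp long, from -548 to -234 bp, with 71.7% GC. The sequence around the inner TSS was searched for the CArG box, the element bound by SRF. A CArG box was taken as CC, 6 bases of A or T, then GG, which reads alike on both strands. Within 1 kb of the inner TSS, 5 such matches were found. Of these, 3 lay in the free stretch, at -407 to -398, -369 to -360 and -353 to -344 bp, and the other 2 lay under the 3156-bp site at -105 to -96 and -83 to -74 bp. A match is a description of the letters and does not show binding.

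**Figure D2:**
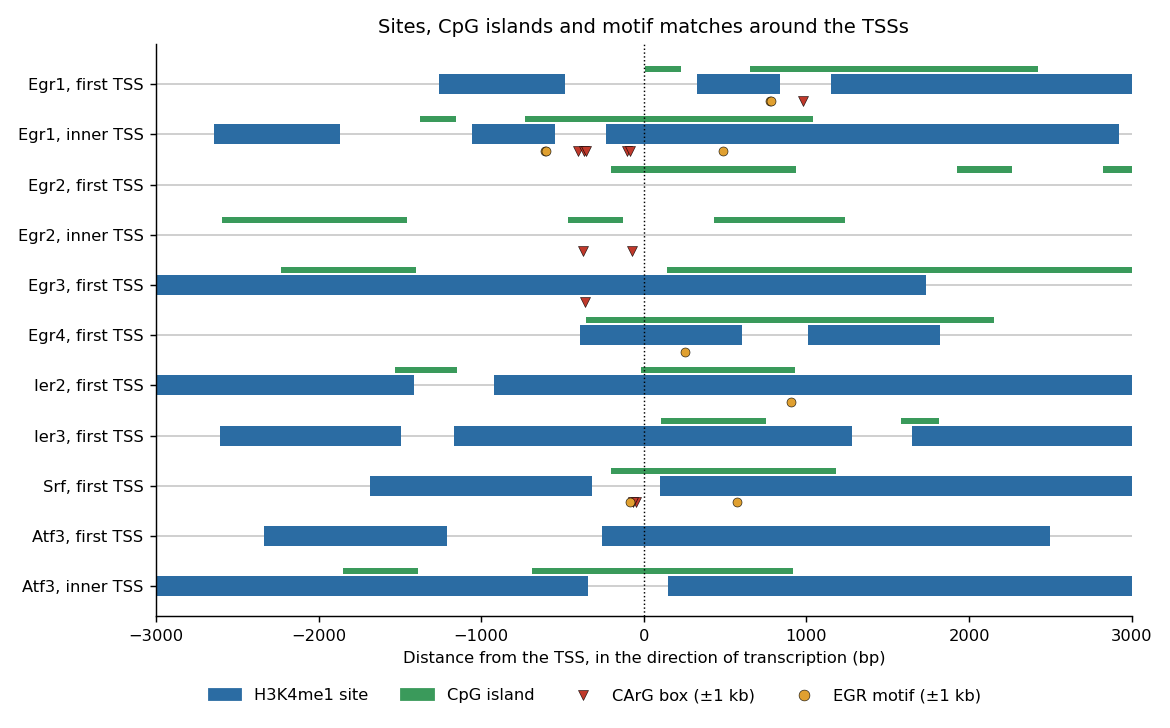
Sites (blue), CGIs (green), CArG boxes (red triangles) and EGR motifs (orange circles) within 3 kb of the first TSS of each gene and of the inner TSSs of Egr1, Egr2 and Atf3, in bp along the direction of transcription, with motifs searched within 1 kb. The first TSS of Egr1, that of Srf and the inner TSS of Atf3 sit in free stretches of 813, 417 and 486 bp, and 3 CArG boxes before the inner TSS of Egr1 lie between 2 sites.

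Srf, the gene of serum response factor itself, lies on the minus strand at chr17:46548329-46556175 and shared the Egr1 layout at its first TSS. The free stretch was 417 bp long, with 319 bases before the TSS and 97 after it. A site of 1363 bp preceded it at -1682 to -320 bp, and a site of 5014 bp followed at 98 to 5111 bp, which covered most of the gene. The RefSeq TSS, 13 bp further on, was in the same stretch, so Srf was the gene that had the layout at both its first and its RefSeq TSS. Its other annotated TSSs did not have it. That of Srf-204 lay under the 5014-bp site, and those of Srf-202 and Srf-203 had a site before them only. The CGI of Srf, 1386 bp long, which spans the first TSS, was 78.4% under sites. The 250 bases before the RefSeq TSS held no base under a site and are shown because 3 motif matches lie in this stretch. The sequence is from RefSeq, GRCm38.p6, chr17:46556163-46556412, minus strand, 5' to 3', with capitals for an EGR motif and for 2 CArG boxes.
Srf: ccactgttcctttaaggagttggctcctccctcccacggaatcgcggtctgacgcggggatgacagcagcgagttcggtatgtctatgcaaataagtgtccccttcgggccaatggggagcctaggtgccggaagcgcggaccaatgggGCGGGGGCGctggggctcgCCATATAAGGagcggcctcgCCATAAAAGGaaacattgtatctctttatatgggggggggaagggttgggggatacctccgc

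Relative to the first TSS, the CArG boxes lay at -69 to -60 and -49 to -40 bp and the EGR motif (GCGNGGGCG, either strand) at -88 to -80 bp. A second EGR motif at 570 to 578 bp lay under the 5014-bp site. Of 32851 RefSeq promoters, 1.47% held a CArG box in the same 250 bases and 4.70% an EGR motif. Among the 2798 CGI genes with the Egr1 layout, 57 (2.04%) had a CArG box anywhere in the free stretch, Srf among them.

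Atf3 lies on the minus strand at chr1:191170296-191218039 and, at 47744 bp, is the longest of the 8 genes. Its first TSS lay under a site of 2755 bp, from -259 to 2495 bp, with no CGI within 1 kb. The TSS of transcript Atf3-201, 34699 bp further into the gene, had the Egr1 layout, with 340 free bases before it, 145 after it and 486 in all. The flanking sites were 3407 bp and 3785 bp wide, and the free stretch lay wholly within a CGI of 1605 bp. RefSeq places the Atf3 TSS 7 bp from there, in the same stretch. The TSS of transcript Atf3-202, 34931 bp from the first, lay under the 3785-bp site. The 250 bases before the RefSeq TSS (RefSeq, GRCm38.p6, chr1:191183334-191183583, minus strand) also held no base under a site and are shown beside those of Srf. None of the 5 motifs searched was matched in these letters, so there are no capitals.
Atf3: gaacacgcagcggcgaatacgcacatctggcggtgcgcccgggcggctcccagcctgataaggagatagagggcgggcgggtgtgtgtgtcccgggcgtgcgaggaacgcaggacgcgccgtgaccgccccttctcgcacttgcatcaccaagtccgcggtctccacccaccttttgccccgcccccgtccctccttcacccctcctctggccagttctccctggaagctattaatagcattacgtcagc

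With RefSeq TSSs, the Egr1 layout was thus again counted in 2 of the 8 genes, but in Srf and Atf3 instead of Egr1 and Srf. Its share was 15% over the 20327 protein-coding genes with a RefSeq TSS and 24.5% over the 11659 of these with a CGI there. The 5 genes with the RefSeq TSS under a site were Egr1, Egr3, Egr4, Ier2 and Ier3, against 41.8% of all and 56.8% of CGI genes. A site lay within 1 kb of the RefSeq TSS in 7 of the 8, all but Egr2, against 67% of all and 93.2% of CGI genes.

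The width of the free stretch was set beside that of all 2798 CGI genes with the Egr1 layout at the first TSS. Their quartiles were 338, 420 and 566 bp. The 813 bp of Egr1 stood at percentile 91.0 and the 417 bp of Srf at percentile 49.4. The 486 bp of Atf3 stood at percentile 63.0, but they are from its inner TSS, and Atf3 is not among the 2798 genes. Egr1, Srf and Atf3 each had more free bases before the TSS than after it, as did 72.1% of the 2798 genes. In these genes the medians were 267 before and 134 after. The free stretches were richer in GC than the sites before them. In Egr1 the free stretch had 56.3% GC and the site before it 47.4%, in Srf 64.0% and 49.7%, and in Atf3 64.6% and 54.1%. The site after the TSS had 62.9% GC in Egr1, above its free stretch, against 56.5% in Srf and 51.3% in Atf3, below theirs. Repeats made up 54.5% of the site before the TSS in Egr1 and 54.0% in Srf, but 6.49% in Atf3.

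**Figure D3:**
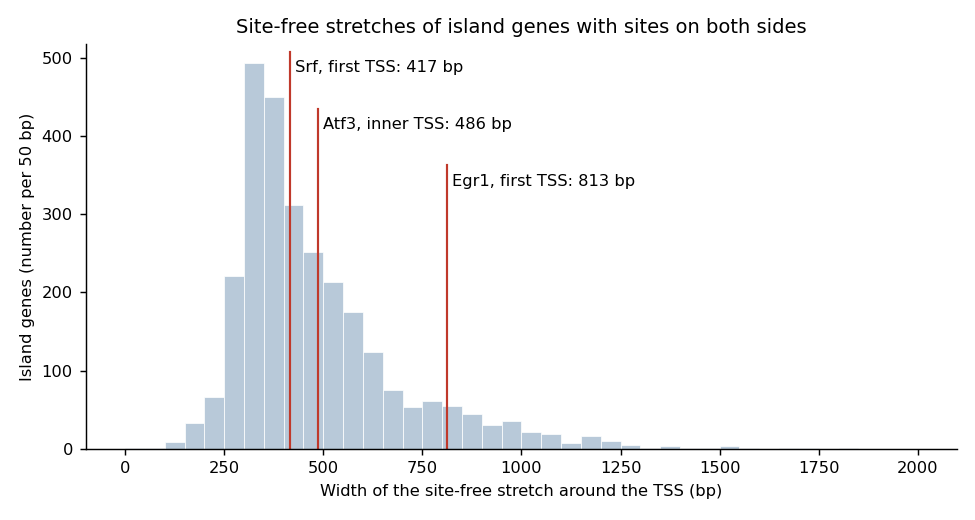
Number of CGI genes by the width of the site-free stretch around the first TSS (bp, in steps of 50 bp), for the 2798 genes with a site on each side. Red lines mark Srf (417 bp) and Atf3 at its inner TSS (486 bp), close to the median of 420 bp, and Egr1 (813 bp), in the upper tail.

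Egr2, which directs hindbrain patterning and myelination, was the exception among the 8. It lies on the plus strand at chr10:67535475-67542188, and no site of the list touched the gene or its flanks at any of its 6 TSSs. Its site-free stretch ran from 67224513 to 67657874, a length of 433 kb, with 311 kb before the first TSS and 122 kb after it. Of 160088 gaps between neighbouring sites, 454 (0.284%) were at least as long, and the median gap was 3352 bp. The stretch held 3 protein-coding genes, Egr2, Ado and Nrbf2, all with a CGI at the promoter, and 5 CGIs in all. Among the other 833 CGI promoters without a site within 1 kb, the median distance to the nearest site was 20194 bp, and 170 (20.4%) lay at least as far from one as Egr2. Repeats made up 24.7% of the stretch and unsequenced bases numbered 8026, and their part in the missing sites was not tested. In the window of the gene with 20 kb flanks, repeats made up 16.7%, with Egr3 the lowest of the 8 genes. A site missing from the list says only that no broad peak was called.

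The inner promoter of Egr2 nevertheless held CArG boxes, which were also found before the TSS of Srf. The 2 Egr2 matches are shown with 10 bases to either side. Both are from RefSeq promoters, GRCm38.p6, plus strand, 5' to 3', with the CArG box in capitals. The first, at chr10:67537484-67537513, lies 375 bp before the TSS of transcript Egr2-201 and the second, at chr10:67537787-67537816, lies 72 bp before it, counted from the first base of the box. The first box also lies 72 bp before another RefSeq TSS of Egr2. Distal and proximal therefore refer to the TSS of Egr2-201 alone.
Egr2 distal: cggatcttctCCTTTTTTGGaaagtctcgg
Egr2 proximal: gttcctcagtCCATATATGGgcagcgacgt

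Egr3, a family member induced in lymphocytes and muscle spindles, lies on the plus strand at chr14:70077203-70082614. All 4 of its TSSs lay under a single site of 5460 bp, the widest of all sites around the 8 genes, which ran from -3722 to 1737 bp around the first TSS. The site covered the 5' UTR and the intron completely and 19.9% of the coding exons, but none of the 3' UTR, whereas in Egr1 the coding exons were covered completely. Further wide sites of 4202, 2422 and 3925 bp lay before the gene, at -11559 to -7358, -16508 to -14087 and -22532 to -18608 bp. A CArG box at -360 to -351 bp and an AP-1 motif (TGANTCA) at -939 to -933 bp lay under the 5460-bp site.

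Egr4, mostly known from the nervous system and testis, lies on the minus strand at chr6:85511121-85513589. Its TSS lay under a site of 1002 bp, at -396 to 605 bp, and a second site of 818 bp followed at 1007 to 1824 bp within the coding part. Between them lay 401 free bases, inside a CGI of 2514 bp that was 70.9% under sites. Outside the gene, sites of 491 bp and 533 bp were listed on the 3' side, the second at the promoter of the neighbouring gene Fbxo41, and none before the TSS. The 250 bases before the Egr4 TSS (RefSeq, GRCm38.p6, chr6:85513590-85513839, minus strand) lay wholly under a site and are shown as a counterpart to the site-free stretches of Srf and Atf3. They matched none of the 5 motifs.
Egr4: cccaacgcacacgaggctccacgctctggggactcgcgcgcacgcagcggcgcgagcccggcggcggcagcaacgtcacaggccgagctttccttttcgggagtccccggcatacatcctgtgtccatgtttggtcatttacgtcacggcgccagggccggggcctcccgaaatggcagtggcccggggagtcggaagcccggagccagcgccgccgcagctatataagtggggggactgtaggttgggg

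The genes Ier2 and Ier3 were covered from end to end. Ier2 (chr8:84661331-84662852, minus strand) lay under a site of 4070 bp at -924 to 3145 bp, which also covered its whole CGI of 944 bp. A CRE motif (TGACGTCA, to which CREB and ATF factors bind) at -45 to -38 bp and an EGR motif at 902 to 910 bp lay under this site. Sites of 2112 bp and 2104 bp stood on either side, at -3522 to -1411 and 4628 to 6731 bp. Ier3 (chr17:35821684-35822923, plus strand) lay under a site of 2445 bp at -1166 to 1278 bp and had none of the 5 motifs within 1 kb. Before Ier3, 6 sites of 282 to 4074 bp lay within 20 kb, the widest at -8016 to -3943 bp. After it came Flot1, Tubb5 and Mdc1, and each of these 3 neighbours had the Egr1 layout at its first TSS.

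**Figure D4:**
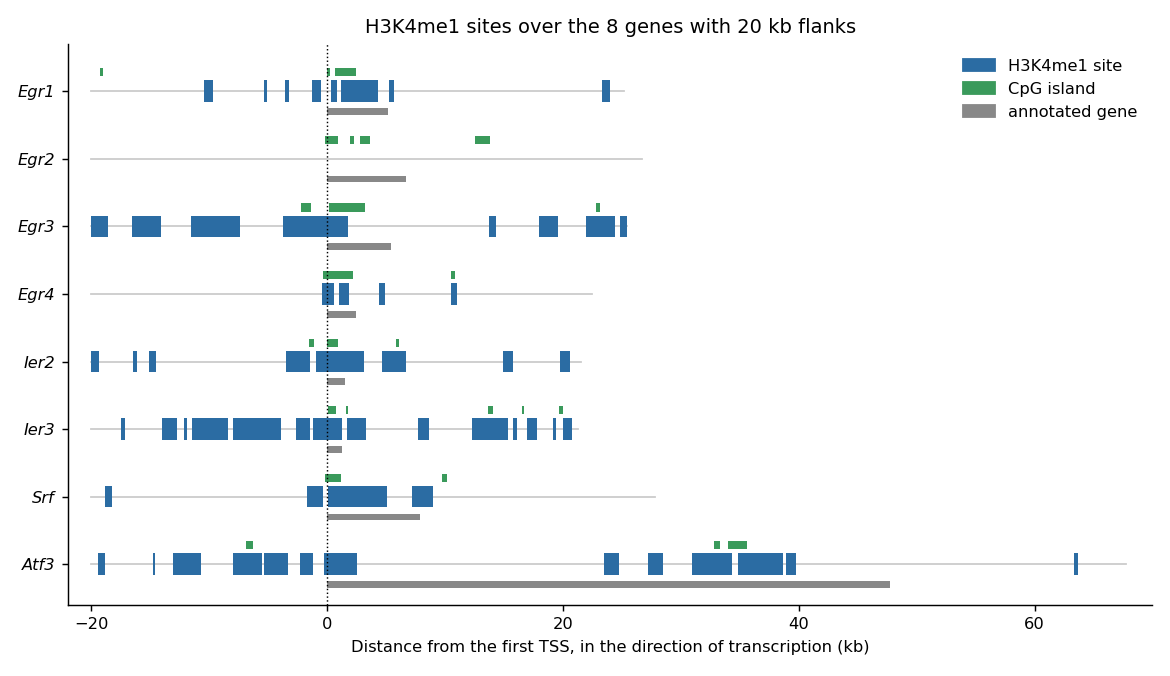
Sites (blue), CGIs (green) and the annotated gene (grey) for the 8 genes with 20 kb flanks, in kb from the first TSS (dotted line) along the direction of transcription. Egr2 shows CGIs but no site, Egr3 and Ier3 have wide sites before the gene, and Atf3 has a group of sites at its inner TSS more than 30 kb into the gene.

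Around the 8 genes 59 sites were counted, and no site was shared between the windows of 2 of them. The window was 49.6% under sites for Ier3 (14 sites), 41.4% for Egr3 (8 sites), 27.8% for Ier2 (8 sites), 25.4% for Atf3 (13 sites), 18.3% for Srf (4 sites), 15.3% for Egr1 (8 sites), 6.70% for Egr4 (4 sites) and 0% for Egr2. Over all protein-coding genes the median was 7.56% and the quartiles were 1.87 and 15.6%. Ier3 and Egr3 stood at percentiles 99.4 and 98.4 of them, Ier2 at 92.7, Atf3 at 90.4, Srf at 80.8, Egr1 at 74.2 and Egr4 at 46.5, so that 6 of the 8 lay above the median. Against the 2942 CGI genes of at most 10 kb, with a median of 15.2%, Ier3 and Egr3 stood at 98.1 and 95.5, Ier2 at 81.8, Atf3 at 77.4, Srf at 59.96, Egr1 at 50.1 and Egr4 at 20.7. Atf3 itself is longer than 10 kb and has no CGI at its first TSS. These shares have no error, since the table holds no replicate. Sites within 1 kb of the TSS of another gene count in these shares. Those genes were Flot1, Tubb5 and Mdc1 for Ier3, and Bin3 and Gm33524 for Egr3. They were Fbxo41 for Egr4, Gm26664 for Ier2, Cul9 for Srf and D730003I15Rik for Atf3.

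**Figure D5:**
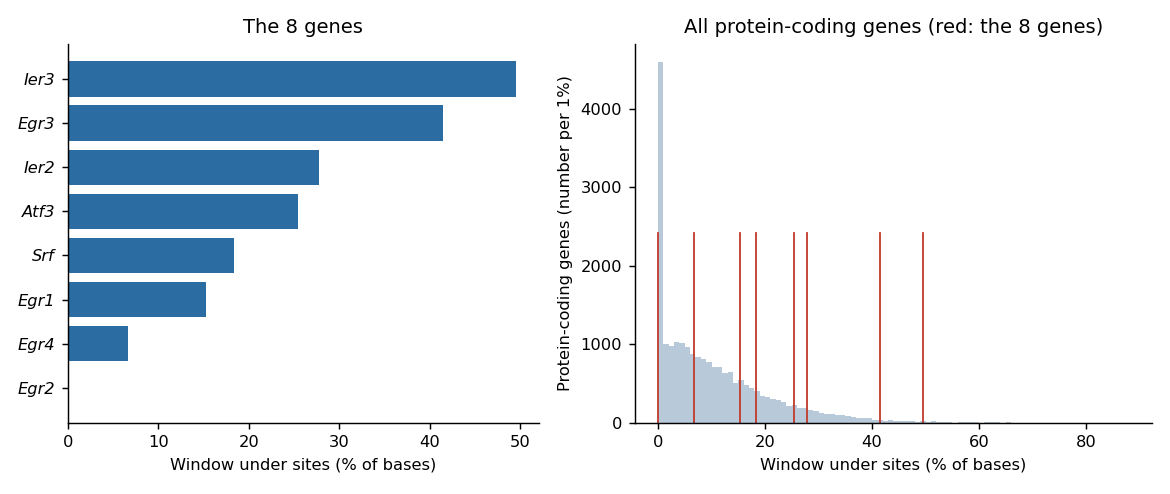
Share of bases under H3K4me1 sites (%) in the window of each gene with 20 kb flanks. The left bars give the 8 genes, from 0% in Egr2 to 49.6% in Ier3, and the right histogram gives the number of all protein-coding genes per 1% step, with red lines for the 8 genes.

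The sites around these genes had a median width of 1002 bp, with a range of 200 to 5460 bp, against 603 bp over all sites. Of the 59 sites, 19 (32.2%) were at least 2000 bp wide, against 9.68% of all sites. These sets differ in make-up, since 34 of the 59 sites lay more than 1 kb from any TSS, against 129931 of 160108 on the chromosomes. Widths of all sites were not compared by distance from a TSS. The 12 sites within 1 kb of a TSS of the 8 genes had a median of 2956 bp. The 34 sites more than 1 kb from any annotated TSS had a median of 778 bp and a range of 200 to 4202 bp, and the 13 sites near the TSS of another gene had a median of 1676 bp. The AP-1 motif was found in 18 of the 34 sites away from TSSs, or 52.9%, against 36.3% of 129931 such sites over the chromosomes. Per kb of sequence there were 0.583 matches in the 34 sites and 0.616 in all of these, against 0.318 over the chromosomes. Of 25 CGIs in the windows, 17 overlapped a site. The share over all 16203 CGIs was not counted, so this count cannot be called high or low. The 8 without one were 4 in the window of Egr2, the small CGI in the free stretch of Egr1, and those at the TSSs of Reep2, Tubb5 and Cul9.

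The promoters were also compared base by base with Egr1, as the share of bases under sites in both among those under sites in either, from 3 kb before to 3 kb after the first TSS. In Egr1, 3134 of these 6001 bases were under sites. Over 21938 protein-coding genes the median share was 15.8%. Srf was the most similar of the 8 at 73.5%, with 95 genes other than Egr1 above it, followed by Atf3 at its inner TSS with 56.8%, Ier3 with 49.7%, Ier2 with 47.8%, Atf3 at its first TSS with 37.3%, Egr3 with 31.2%, Egr4 with 23.9% and Egr2 with 0%. The 5 genes most like Egr1 over all were Eif4a1 (93.9%), Nars (87.3%), Rnf44 (83.9%), Inpp5a (83.9%) and Ptov1 (83.6%). All 5 have a CGI and the Egr1 layout, with free stretches of 528 to 646 bp. The layout and a stretch of similar width largely follow from how these 5 were picked, by coverage like that of Egr1. The ranking holds for the first TSS of Egr1 and was not made at its RefSeq TSS, which lay under a site.

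Other genes of the pathway were taken from lists. All 10 cofactors of EGR proteins and regulators of SRF had a site within 1 kb of the TSS, with 6 under a site and 3 in the Egr1 layout. The widest free stretches of these were 648 bp in Rhoa, the small GTPase that acts on actin and MRTF, and 637 bp in Mrtfa, an SRF coactivator. Of 35 further immediate early genes, 34 had a site within 1 kb, 21 had the TSS under a site and 10 had the Egr1 layout. The widest free stretches were 1085 bp in Klf6, a zinc finger factor, and 546 bp in Mcl1, which encodes a survival factor of the BCL2 family. Jund, an AP-1 subunit, had no site within 1 kb, with the nearest 25007 bp before and 148875 bp after the TSS. All 11 cytoskeletal targets of SRF had a site within 1 kb, with 6 under a site and 4 in the Egr1 layout, the widest of which were 831 bp in Vcl and 556 bp in Zyx, both of focal adhesions. A CGI lay at the promoter of 8 of the 10, 34 of the 35 and 6 of the 11 genes, against 11830 of 21938 protein-coding genes. For comparison, 93% of all CGI genes had a site within 1 kb, 56.7% had the TSS under a site and 23.7% had the Egr1 layout, and over all protein-coding genes the shares were 63.9%, 39.5% and 13.7%. The counts of the 35 immediate early genes lay close to those of CGI genes. The median window share was 14.4%, 28.8% and 30.5% in the 3 lists, against 21.9% for the 8 genes and 7.56% for all protein-coding genes. Among CGI genes of at most 10 kb it was 15.2%. For the 8 fibroblast markers it was 26.2%, and for the 12 markers of other cell types 4.47%.

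The motif counts are given for all 8 genes within 1 kb of the first TSS. CArG boxes were found in Egr1 (1), Egr3 (1) and Srf (2), against 9.31% of protein-coding genes with at least 1. EGR motifs were found in Egr1 (2, which overlap each other), Egr4 (1), Ier2 (1) and Srf (2), against 18.5% of protein-coding genes and 32.4% of those with a CGI. The ETS motif (CCGGAAGT) was found in none, against 8.58%, the CRE motif in Ier2 alone, against 4.02%, and the AP-1 motif in Egr3 alone, against 37.3%. At the inner TSSs the counts differed, with 5 CArG boxes for Egr1, 2 for Egr2 and an AP-1 motif for Atf3. Within 1 kb of the TSSs searched, all CArG boxes of Srf and Egr2 and 3 of the 5 of Egr1 lay outside sites. The CArG box of Egr3 there lay under a site. For Egr2 a position outside sites was fixed in advance, since no site lay in its window. The share of all CArG matches that lie outside sites was not counted, so these counts cannot be called high or low. Over their whole width, the 5014-bp site of Srf held 1 CArG match and the 5460-bp site of Egr3 held 2.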

How the data were processed

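H3K4me1 ChIP-seq reads of NG3 cells were, by the authors, trimmed with Trim Galore and aligned to mm10 with BWA, replicates were merged with Picard, and broad peaks were called with MACS2. Versions and thresholds are not given in the sources used here. The values in the deposited table are 0-based starts and ends in bases; coordinates printed here are 1-based.

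Overlaps were computed in Python 3.11.15 (numpy 2.4.6, scipy 1.17.1, numba 0.67.0; figures, matplotlib 3.10.9) on GRCm38.p6 and GENCODE M21. Release M25, named in the methods, was not used here. Each gene had 1 first TSS, its most upstream one. An overlap of 1 base counted. CGIs were called on repeat-masked sequence (score 17 per CpG, -1 per other base, over 200 bp, GC at least 50%, observed to expected CpG over 0.6), which gave 16203. The RefSeq TSS was that of curated mRNAs, for 20327 protein-coding genes. RefSeq promoter sequences were matched by symbol for 5 of the 8 genes. Functions were tested on simulated data.

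Genes named are the 8, their neighbours, the 5 most like Egr1, and from each list those without a site and the 2 with the widest free stretch. Members and lists were chosen with earlier results of these data known. Comparisons with RefSeq TSSs, motifs per kb and widths of at least 2000 bp were added after the data were seen.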

Additional observations from a re-analysis of the deposited data

How the results depend on the processing

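Of 31 alternatives for 7 results, 19 gave the same value within the limits set and 12 moved it. For counts the limit was a factor of 1.5, so some of the 19 had changed. The 59 sites became 48 with sites of at least 500 bp and 46 with sites within 500 bp merged. Merging also raised the genes with the TSS under a site from 5 to 6. Genes with the Egr1 layout fell from 2 to 1 when sites within 500 bp were merged, since this closes the 417-bp stretch of Srf by construction. The share of CGI genes with the layout, 23.7%, was 14.8% with sites of at least 500 bp, 8.07% with merged sites, 19.8% and 24.9% with flanks of 500 bp and 2 kb, 27.5% with CGIs of at least 500 bp, and 24.5% with RefSeq TSSs, an alternative added after the data were seen. Sites around the 8 genes numbered 35 and 117 with flanks of 10 and 50 kb, against 59. Their median window share, 21.9%, was 28.4% and 19% with these flanks and 21.5% with sites of at least 500 bp. No paired analysis was possible because the list gives positions alone, and for the same reason no replicate could be left out. Limits are the pooled list, the missing depth, and the choice between first and RefSeq TSS, which decides the class of Egr1 and Atf3.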

Other observations

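The choice of TSS moved other genes too. Of 2934 protein-coding genes with the Egr1 layout at the first TSS and a RefSeq TSS, 2686 (91.5%) had it at both, and in 205 (6.99%), Egr1 among them, the RefSeq TSS lay under a site. In the other direction, 362 of the 3048 genes (11.9%) with the layout at the RefSeq TSS, Atf3 among them, did not have it at the first. Of 3296 genes with the layout at either TSS, 610 (18.5%) had it at a single one. In 83 of the 2934 (2.83%) the RefSeq TSS was more than 1 kb from the first, as in Egr1, against 12.6% of all 20327 genes with a RefSeq TSS.

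At RefSeq TSSs, at least 1 CArG box lay within 1 kb in 1829 of the 20327 genes and at least 2 in 109 genes (0.536%). At least 5 were found in 1 gene, which was Egr1. This count was made after the 5 matches of Egr1 had been seen.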
